A study of Oryza sativa with 18 samples.

Results

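The sheath of the rice variety 9311 was compared between 6 h and 3 h of feeding by the brown planthopper (BPH), using the deposited log2 values of 3 arrays at each time. These 6 arrays, of 18 in the series, were chosen by their sample titles, and the 0 h arrays took no part in the test. Per the labels, 9311 is an indica variety susceptible to BPH. The 9311 plants at 6 h and at 3 h differ only in the hours of infestation, and both groups were taken at the four-leaf stage from plants grown in a controlled chamber. NIL-BPH9, a near-isogenic counterpart with the BPH9 resistance gene, was infested for the same 6 h and 3 h on its own 6 arrays and is given beside 9311 where the lines differ. The 0 h plants of 9311 were sampled without insects, and their 3 arrays are quoted as levels only. No uninfested plants at 3 h or 6 h were analysed here, so hours of infestation and time of day cannot be told apart. The labels call the 3 samples of a group biological replicates, and nothing says how many plants each one pools.

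The brown planthopper pierces the leaf sheath and draws sap from the phloem. Rice answers wounding and feeding through jasmonate, a lipid-derived hormone, whose signal is held in check by JAZ (TIFY) repressor proteins that the same signal induces. Calcium sensors, WRKY and AP2 transcription factors, proteinase inhibitors, chitinases and diterpene phytoalexins are other known parts of plant defence, and growth genes are often turned down while defence is on. A comparison of 6 h with 3 h shows which transcripts were still moving after the first hours. The 0 h level printed beside a gene says only on which side of it the later levels stood.

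Of 15870 genes tested, each by 1 probe set, 1766 (11.1%) passed at an adjusted p under 0.05 in limma, a linear model that shares the estimate of spread across genes. Of these, 979 (6.17% of all genes) were higher at 6 h and 787 (4.96%) were lower. The changes were mostly small: 152 genes (0.958%) passed with at least a 2-fold change, of which 131 (0.825%) rose and 21 (0.132%) fell. Among the 21 genes with the larger falls, 8 lay under the array median on all 3 arrays at 6 h, and 9 of the 131 with the larger rises lay under it on all 3 arrays at 3 h. The 3 arrays at 6 h did not overlap the 3 at 3 h for 4726 genes (29.8%), and the median log2 change over all genes was -0.01. When each array was centred on its median, 696 genes rose and 187 fell, so the balance of rises and falls depends on the scaling. Of 31547 probe sets 2502 (7.93%) passed, 4.30% higher and 3.63% lower at 6 h. Thus 54.2% of the calls were higher at 6 h, against 77.2% of 1274 calls with centring. Without replicate 1 of 3 h, 11 genes fell by at least 2-fold in place of 21.

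**Figure D1:**
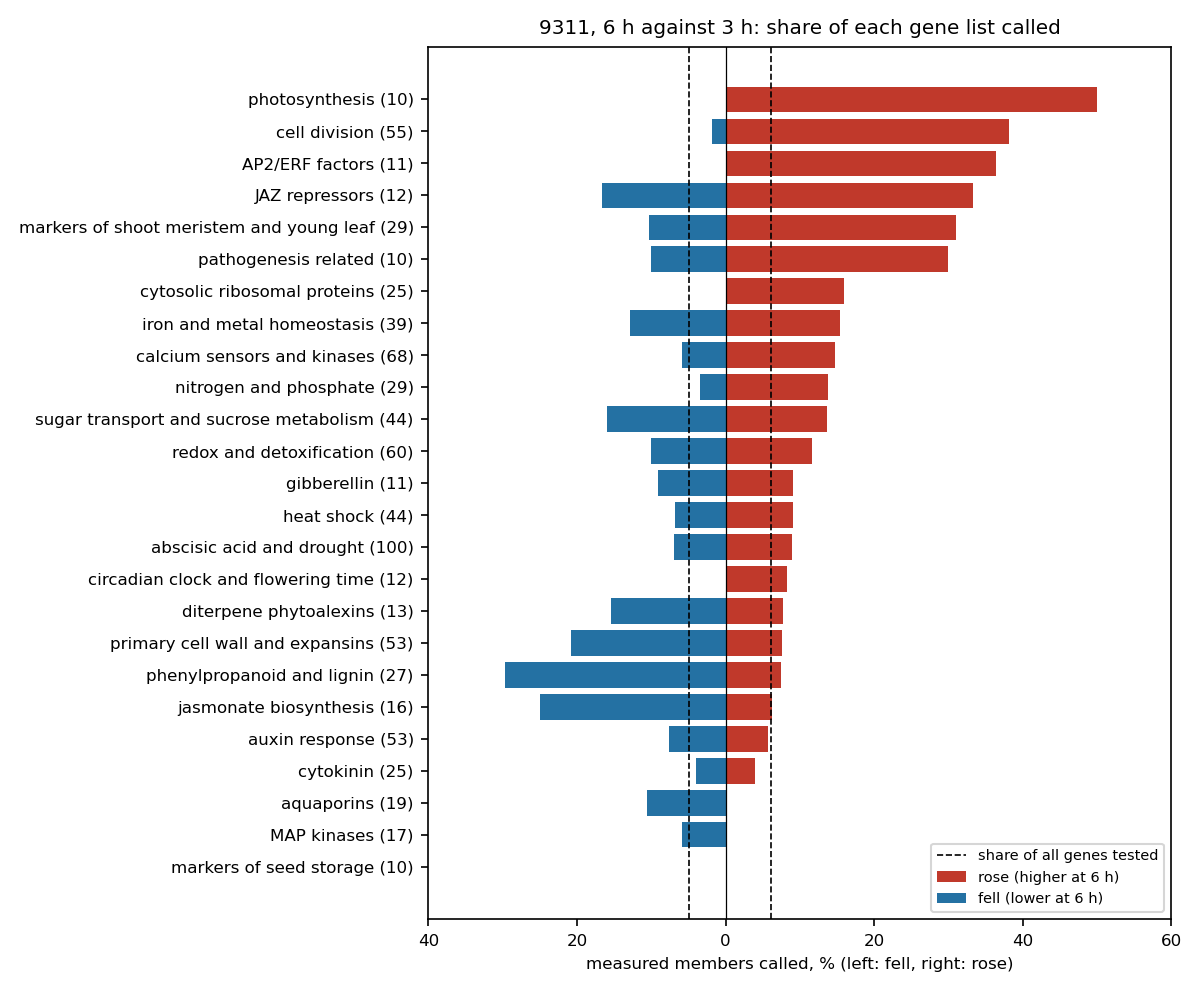
Share of the measured members of each gene list of 10 or more measured members that rose (right, red) or fell (left, blue) in 9311 at 6 h against 3 h, with the number measured in brackets. Dashed lines mark the share of all genes tested, 6.17% for rises and 4.96% for falls. Lists beyond the line for rises include photosynthesis, cell division, AP2/ERF factors, JAZ repressors, markers of shoot meristem and young leaf, and pathogenesis related genes. Lists beyond the line for falls include phenylpropanoids, jasmonate synthesis and primary cell wall, and in each of these fewer genes fell when arrays were centred. Many bars rest on few genes and change when 1 array is left out or arrays are centred.

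The arrays were broadly alike in correlation, median and control ratio. Probe sets with a log2 value of 0 numbered 1156 to 2002 per array at 6 h and 1374 to 1492 at 3 h. Replicate 2 of 6 h had the most such values and the lowest median. Replicate arrays of a group correlated at 0.962 to 0.966 across probe sets, and arrays of 6 h with arrays of 3 h at 0.957 to 0.962. The array medians were 5.18 to 5.41 at 6 h and 5.30 to 5.37 at 3 h on the log2 scale. The mean 3' to 5' log2 ratio over 5 pairs of control probe sets, which follows RNA integrity, was 1.77 ± 0.09 at 6 h and 1.76 ± 0.06 at 3 h (SD, n = 3 each, exact permutation p = 1, two-sided, where 0.1 is the smallest p possible). Pairs whose 5' probe set did not exceed the array median on every array were left out. The mean covers unlike pairs, from 3.50 at 6 h and 3.42 at 3 h for an actin pair to -0.66 and -0.56 for ubiquitin. Markers of green mesophyll summed to linear signals of 71964 to 74198 at 6 h and 62652 to 64375 at 3 h (4 genes measured). Markers of phloem (5 genes) summed to 19004 to 19490 at 6 h and 18422 to 19114 at 3 h, and seed storage genes (10 measured) to 6791 to 7200 at 6 h and 6852 to 7004 at 3 h. In whole sheath, fewer cells of a type and less RNA per cell cannot be told apart.

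DREB1 genes rose together and by large steps. They encode AP2 transcription factors best known for switching on cold and drought tolerance genes. DREB1B stood at 11.01, 10.95 and 10.45 on the 3 arrays at 6 h, against 7.65, 8.20 and 8.05 on those at 3 h. It rose by 2.84 ± 0.18 on the log2 scale (SE), a 7.14-fold change with an adjusted p of 1.02e-07, and its groups were far apart. DREB1E had 9.84, 9.50 and 9.46 at 6 h and 7.80, 7.84 and 7.28 at 3 h, and rose by 1.96 ± 0.14. DREB1A had 8.90, 8.98 and 8.87 at 6 h and 6.76, 7.25 and 7.31 at 3 h, a rise of 1.81 ± 0.16. DREB1G rose by 1.57 ± 0.23, with 7.53, 7.24 and 7.51 at 6 h and 5.59, 5.96 and 6.04 at 3 h. For all 4 genes every array at 6 h lay above every array at 3 h. DREB1C was the exception in the family: it averaged 5.07 ± 1.44 at 6 h and 5.93 ± 0.51 at 3 h (SD, n = 3 each), near the array medians, and did not pass (adjusted p = 0.459). Of 11 measured members of the AP2/ERF list 4 rose and 0 fell, beside the 6.17% and 4.96% of all genes, and the 4 are these DREB1 genes. The means at 0, 3 and 6 h were 9.31, 7.97 and 10.80 for DREB1B, 8.16, 7.64 and 9.60 for DREB1E, and 7.51, 7.10 and 8.92 for DREB1A, so the 6 h level stood above the uninfested level in each.

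Calcium sensors of the calmodulin-like (CML) family rose in the same interval. CML31 had 10.02, 9.98 and 10.03 at 6 h against 8.30, 8.48 and 8.55 at 3 h, a rise of 1.56 ± 0.09 (adjusted p = 2.42e-08). CML15 rose by 1.20 ± 0.17, with 9.97, 10.65 and 10.49 at 6 h and 9.13, 9.10 and 9.28 at 3 h. The 6 h arrays of both genes lay clear of the 3 h arrays. CML14 rose by 1.10 ± 0.23, CML10 by 1.01 ± 0.04 and CML16 by 0.79 ± 0.04. CML10 averaged 12.98 ± 0.05 at 6 h and 11.97 ± 0.03 at 3 h (SD, n = 3 each). CML4 went the other way, with 9.75, 9.83 and 9.87 at 6 h against 10.80, 10.56 and 10.46 at 3 h, a fall of 0.79 on the log2 scale (SE 0.10). CIPK5, a protein kinase of the family that calcineurin B-like calcium sensors bind, fell by 0.91 (SE 0.16), with 7.19, 6.91 and 6.95 at 6 h and 7.96, 7.86 and 7.96 at 3 h. Over the list of calcium sensors and kinases, 10 of 68 measured members rose and 4 fell, beside 6.17% and 4.96% of all genes, and the median log2 change was 0.01, against -0.01 over all genes. The number that fell was 2 without replicate 2 of 3 h and with centring.

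Further transcription factors rose. OsWRKY71, a WRKY factor tied to defence and gibberellin responses, had 10.36, 10.52 and 10.47 at 6 h against 9.29, 9.04 and 9.20 at 3 h, a rise of 1.28 ± 0.08 (adjusted p = 1.28e-07). OsWRKY76, known as a repressor of defence genes in rice, had 9.08, 8.92 and 8.90 at 6 h against 8.06, 7.93 and 8.08 at 3 h, and rose by 0.94 ± 0.08. OsWRKY62, of the same subgroup, was 0.65 ± 0.20 higher at 6 h but did not pass (adjusted p = 0.0617), although it did without replicate 2 of 6 h (adjusted p = 0.0102). Of 6 WRKY genes measured, 2 rose and 0 fell, beside 6.17% and 4.96% of all genes. NAC067, a stress-related NAC factor, rose by 1.07 ± 0.06, with 11.39, 11.34 and 11.34 at 6 h and 10.37, 10.14 and 10.36 at 3 h. OsWRKY71 averaged 9.11, 9.18 and 10.45 at 0, 3 and 6 h, and NAC067 averaged 10.42, 10.29 and 11.36, so in both the 3 h level lay close to the uninfested one and the gain came between 3 h and 6 h.

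**Figure D2:**
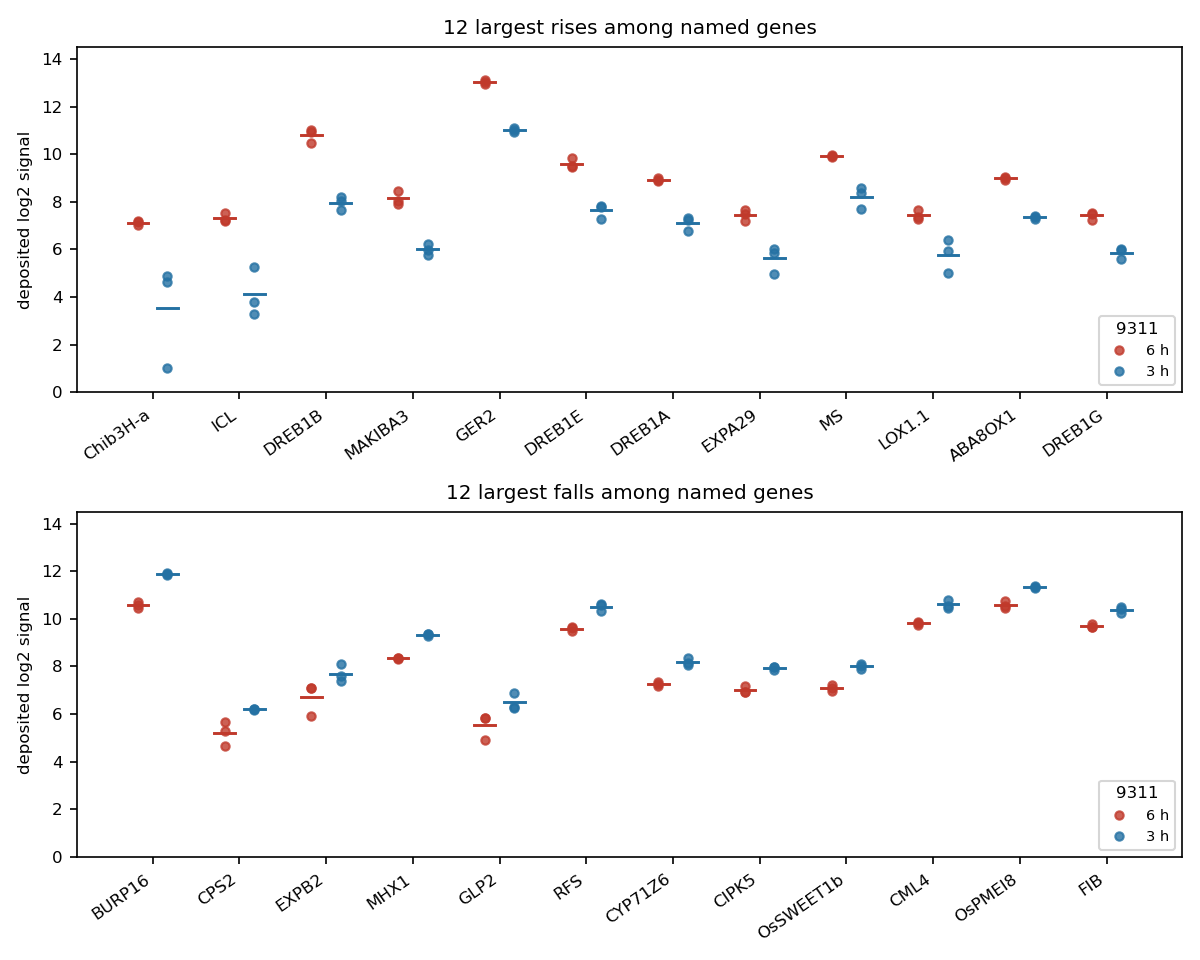
Deposited log2 signal on each array of 9311 (points; lines are means of 3) for the 12 largest rises and 12 largest falls among called genes with a name whose groups do not overlap, with 6 h (red) left of 3 h (blue). The points of Chib3H-a and ICL are widely spread at 3 h, where both lie under the array median, while the 3 points of GER2 and of BURP16 lie close together at each time.

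Other large rises were of single genes of varied roles. GER2, a germin-like protein, had 13.02, 13.13 and 12.95 at 6 h against 10.93, 11.03 and 11.08 at 3 h, a 4.04-fold rise (2.01 ± 0.06 on the log2 scale, adjusted p = 4.63e-11). ABA8OX1, a hydroxylase that starts the breakdown of abscisic acid, had 8.93, 9.01 and 9.03 at 6 h against 7.27, 7.37 and 7.42 at 3 h, and rose by 1.64 ± 0.11. The arrays of each time lay within 0.2 of each other for both genes. ICL, isocitrate lyase of the glyoxylate cycle, had 7.20, 7.55 and 7.22 at 6 h, against 3.81, 5.28 and 3.31 at 3 h, all under the array median, and its rise of 3.18 ± 0.61 (adjusted p = 0.00392) is measured from a dim baseline. MS, for which the gene table gives only this symbol, had 9.96, 9.91 and 9.90 at 6 h against 8.57, 8.36 and 7.71 at 3 h and rose by 1.71 ± 0.16. Chib3H-a, which the gene table also lists as the xylanase inhibitor RIXI, had 7.01, 7.21 and 7.16 at 6 h and 1.04, 4.90 and 4.64 at 3 h, all under the array median. Its rise of 3.60 ± 0.89, measured from that dim baseline, passed (adjusted p = 0.0198), but not without the intensity trend (0.0755) or when any 1 of the 3 arrays at 6 h was left out (adjusted p between 0.0567 and 0.0644). MAKIBA3 rose by 2.14 ± 0.21, with 8.45, 8.05 and 7.92 at 6 h against 6.24, 5.99 and 5.78 at 3 h. EXPA29, an expansin that loosens cell walls, rose by 1.81 ± 0.27, with 7.64, 7.20 and 7.48 at 6 h against 5.87, 4.97 and 6.04 at 3 h. The means at 0, 3 and 6 h were 12.64, 11.02 and 13.03 for GER2, 6.67, 4.14 and 7.32 for ICL, 9.22, 8.22 and 9.92 for MS, 8.89, 6.00 and 8.14 for MAKIBA3, and 8.05, 5.62 and 7.44 for EXPA29. In all 5, the 3 h level was the lowest of the 3 times.

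Genes on the lists of JAZ repressors and of jasmonate synthesis changed in either direction. TIFY11A had 8.79, 8.25 and 8.42 at 6 h against 7.60, 7.50 and 7.06 at 3 h, a rise of 1.10 ± 0.15 (adjusted p = 0.000183). TIFY11E had 9.63, 9.71 and 9.67 at 6 h and 8.85, 8.56 and 8.41 at 3 h, a rise of 1.07 ± 0.10. TIFY11B had 11.71, 11.74 and 11.78 at 6 h and 10.89, 10.85 and 10.78 at 3 h, a rise of 0.90 ± 0.05. These genes encode JAZ proteins of the TIFY11 branch, and none of their arrays overlapped between the times. TIFY11C rose by 0.34 ± 0.07, a call that was lost in a fit of all 18 arrays (adjusted p = 0.142), and TIFY11D was 0.07 ± 0.07 higher at 6 h and did not pass. Other JAZ genes fell slightly: TIFY10B had 13.78, 13.70 and 13.75 at 6 h against 13.96, 13.91 and 13.99 at 3 h, and TIFY6A averaged 11.03 ± 0.10 at 6 h and 11.24 ± 0.05 at 3 h (SD, n = 3 each). Both falls, of 0.21 on the log2 scale, did not pass when arrays were centred (adjusted p = 0.318 for TIFY10B and 0.427 for TIFY6A), and that of TIFY6A was also lost when any 1 array other than replicate 1 of 6 h was left out (adjusted p between 0.0514 and 0.128). Of 12 JAZ genes measured, 4 rose and 2 fell, beside 6.17% and 4.96% of all genes. The number that fell was 0 with centring and 1 when any array other than replicate 1 of 6 h was left out. The median log2 change was 0.15, against 0.08 without replicate 1 of 3 h and 0.24 without replicate 3 of 6 h. The means at 0, 3 and 6 h were 6.91, 7.39 and 8.49 for TIFY11A, 8.25, 8.61 and 9.67 for TIFY11E and 10.05, 10.84 and 11.74 for TIFY11B, each higher at every later time, while TIFY10B stood at 12.91, 13.95 and 13.74.

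On the list of jasmonate synthesis, LOX1.1, a lipoxygenase, had 7.65, 7.38 and 7.30 at 6 h against 5.01, 5.95 and 6.38 at 3 h. It rose by 1.66 ± 0.36 (adjusted p = 0.00841). The list takes lipoxygenases by name, and whether LOX1.1 serves jasmonate synthesis was not checked. AOS1, an allene oxide synthase, fell by 0.38 on the log2 scale (SE 0.06, adjusted p = 0.0014), with 10.19, 10.23 and 10.31 at 6 h and 10.63, 10.57 and 10.66 at 3 h. Both pairs of groups were separate. AOS2 differed by 0.26 ± 0.20 (adjusted p = 0.529), and the allene oxide cyclase gene aoc by -0.01 ± 0.04 (adjusted p = 0.954). Of 16 measured genes on this list 1 rose, which is LOX1.1, and 4 fell, beside 6.17% and 4.96% of all genes. With centred arrays 1 rose and 1 fell. The number that fell was 2 without replicate 1 or 2 of 3 h or replicate 1 of 6 h, and 3 without any other array. AOS1 averaged 9.66, 10.62 and 10.24 at 0, 3 and 6 h, so at 6 h it still stood above the uninfested mean.

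**Figure D3:**
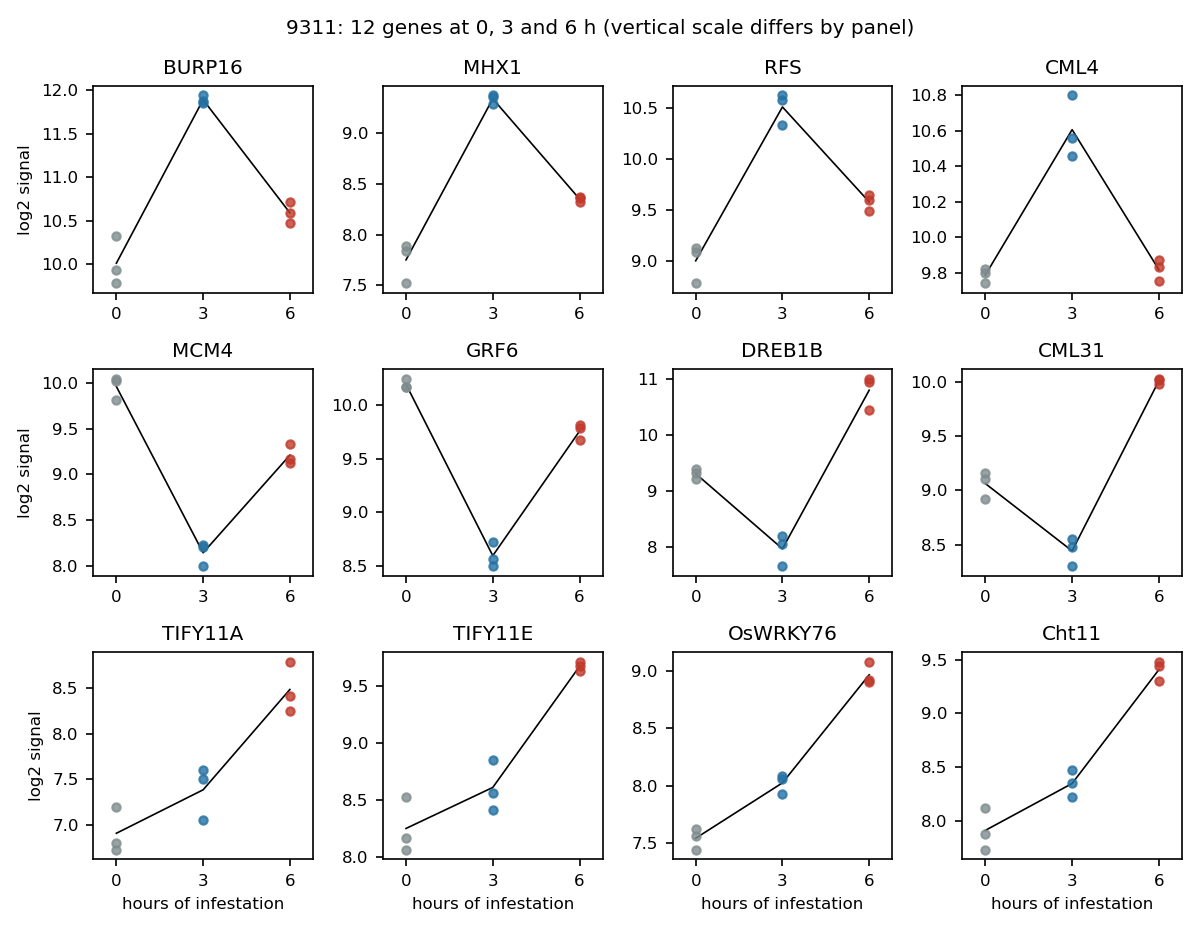
Deposited log2 signal of 12 genes in 9311 at 0, 3 and 6 h of infestation; points are arrays (3 at each time), the line joins the means, and the vertical scale differs by panel. BURP16, MHX1, RFS and CML4 stand highest at 3 h, MCM4, GRF6, DREB1B and CML31 lowest at 3 h, and TIFY11A, TIFY11E, OsWRKY76 and Cht11 highest at 6 h, with no test of the 0 h values.

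DNA replication genes rose together. Of 55 measured genes of cell division, 21 rose and 1 fell, where 6.17% and 4.96% of all genes did, and their median log2 change was 0.25 against -0.01 over all genes. The 6 subunits of the MCM helicase, which opens DNA at replication origins, all rose: MCM4 by 1.07 ± 0.10, MCM2 by 1.06 ± 0.14, MCM3 by 0.93 ± 0.09, OsMCM6 by 0.93 ± 0.20, MCM7 by 0.85 ± 0.16 and MCM5 by 0.83 ± 0.11. MCM4 had 9.13, 9.33 and 9.17 at 6 h against 8.20, 8.23 and 7.99 at 3 h (adjusted p = 4.21e-06). MCM2 had 9.27, 9.50 and 9.21 at 6 h against 8.33, 8.30 and 8.16 at 3 h. For all 6 subunits every 6 h array exceeded every 3 h array. OsRPA70b and OsRPA32, subunits of the protein that coats single-stranded DNA, rose by 0.92 ± 0.09 and 0.65 ± 0.08. OsPCNA, the sliding clamp of DNA polymerase, rose by 0.60 ± 0.06, with 11.07, 11.16 and 11.27 at 6 h and 10.59, 10.62 and 10.50 at 3 h. The DNA methyltransferase CMT3 rose by 0.82 ± 0.15, the histone H2B.10 by 0.64 ± 0.07 and the cyclin CYCD4-1 by 0.61 ± 0.06. CYCB1-1, a mitotic cyclin, was 0.16 ± 0.05 higher at 6 h and did not pass (adjusted p = 0.0832). Leaving out 1 array left between 15 and 19 genes of the list that rose, and 0 or 1 that fell. The means at 0, 3 and 6 h were 9.96, 8.14 and 9.21 for MCM4, 10.01, 8.27 and 9.32 for MCM2, 11.84, 10.57 and 11.17 for OsPCNA and 10.07, 8.49 and 9.40 for OsRPA70b, so the 6 h level of each lay between those of 3 h and 0 h.

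Genes of young, growing leaf tissue moved beside the replication genes. Of 29 measured markers of shoot meristem and young leaf, 9 rose and 3 fell, beside 6.17% and 4.96% of all genes. Their median log2 change of 0.36 rested on single arrays: it was 0.07 without replicate 1 of 3 h, 0.13 without replicate 2 of 3 h and 0.23 without replicate 1 or 2 of 6 h. With centring 9 rose and 0 fell. GRF1, a growth-regulating factor of expanding leaves, had 9.12, 9.46 and 9.64 at 6 h against 8.26, 8.02 and 7.85 at 3 h, a rise of 1.36 ± 0.13 (adjusted p = 9.43e-06). GRF6 had 9.67, 9.78 and 9.81 at 6 h against 8.73, 8.57 and 8.50 at 3 h, a rise of 1.16 ± 0.10. GRF7 rose by 1.03 ± 0.09 and GRF10 by 0.68 ± 0.10. OsYAB3, a YABBY factor of developing leaves, had 7.53, 7.70 and 7.29 at 6 h against 5.61, 6.17 and 6.21 at 3 h, a rise of 1.51 ± 0.22. The meristem homeobox gene OSH1 had 6.72, 6.46 and 6.64 at 6 h and 4.06, 0.60 and 1.62 at 3 h, all under the array median at 3 h, and did not pass (adjusted p = 0.0509), though it did without replicate 1 of 3 h (adjusted p = 0.0387) and in a fit of all 18 arrays (adjusted p = 0.00257). OSH45 and HOS66, homeobox genes that the list took by name, fell by 0.35 (SE 0.07) and 0.31 (SE 0.06) on the log2 scale. Centring removed both calls (adjusted p = 0.152 and 0.181), and whether these genes mark meristem was not checked. The summed linear signal of the 29 markers was 45634 to 47717 at 6 h and 46811 to 47534 at 3 h, so the groups overlapped, and 0 of the 29 at 6 h and 2 at 3 h lay under the array median on all 3 arrays. Whether the share of young tissue in the samples had a part in the replication result was not tested. GRF1 averaged 9.55, 8.04 and 9.41 at 0, 3 and 6 h, GRF6 averaged 10.19, 8.60 and 9.76, and OsYAB3 averaged 8.29, 6.00 and 7.51.

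**Figure D4:**
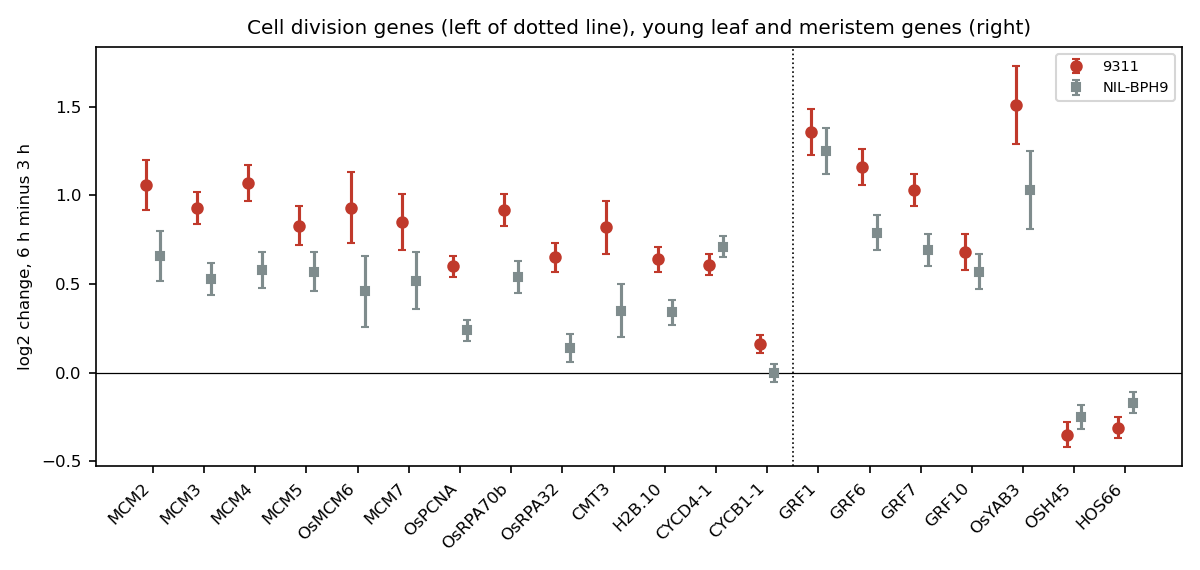
Log2 change from 3 h to 6 h with its SE for cell division genes (left of the dotted line) and genes on the list of shoot meristem and young leaf (right of it), in 9311 (circles) and NIL-BPH9 (squares). All 6 MCM genes stand between 0.83 and 1.07 in 9311; OSH45 and HOS66 lie under 0.

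Photosynthesis genes rose by small amounts. PORA, which makes chlorophyllide during greening, had 12.81, 12.86 and 12.90 at 6 h against 12.18, 12.23 and 12.14 at 3 h, a rise of 0.67 ± 0.04 (adjusted p = 5.06e-08). LHCP, a light-harvesting chlorophyll protein, had 13.94, 13.95 and 14.02 at 6 h against 13.56, 13.51 and 13.50 at 3 h, a rise of 0.45 ± 0.03. The groups did not touch in either gene. rca, the activase of Rubisco, rose by 0.21 ± 0.04, a call that a fit of all 18 arrays removed (adjusted p = 0.059). Of 10 photosynthesis genes measured, 5 rose and 0 fell, beside 6.17% and 4.96% of all genes. The number that rose was 3 with centred arrays and without replicate 3 of 3 h, and 2 with all 18 arrays; without replicate 2 of 6 h 6 rose and 1 fell. The green mesophyll markers moved with it as given above (all 4 are in the list), and the part of tissue composition was not tested. PORA averaged 13.24, 12.18 and 12.86 at 0, 3 and 6 h, and LHCP averaged 14.19, 13.52 and 13.97.

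Sugar and starch genes changed in both directions. OsSWEET11, a sugar exporter, had 11.97, 11.99 and 12.05 at 6 h against 11.35, 11.20 and 11.31 at 3 h, a rise of 0.71 ± 0.05 (adjusted p = 2.58e-07). OsSUT1, a sucrose transporter, had 9.41, 9.98 and 9.85 at 6 h against 10.38, 10.35 and 10.45 at 3 h, a fall of 0.65 (SE 0.11). OsSWEET1b, another transporter of the SWEET family, fell by 0.90 (SE 0.21), with 7.11, 7.24 and 6.97 at 6 h and 7.90, 8.02 and 8.09 at 3 h. That fall was lost without replicate 3 of 3 h (adjusted p = 0.0579) or replicate 3 of 6 h (adjusted p = 0.055). The cell wall invertase gene CIN1 fell by 0.44 (SE 0.07), and OsTPP1, a trehalose phosphate phosphatase, rose by 0.89 ± 0.12. AMY1.3, an alpha-amylase induced by sugar starvation, had 7.80, 7.76 and 8.12 at 6 h against 6.28, 6.78 and 6.36 at 3 h and rose by 1.42 ± 0.31. AGPS2, a small subunit of the enzyme that commits sugar to starch, rose by 0.47 ± 0.04. RFS, raffinose synthase, fell by 0.93 (SE 0.08), with 9.49, 9.60 and 9.64 at 6 h against 10.57, 10.62 and 10.33 at 3 h (adjusted p = 2.96e-06). Of 44 measured genes of sugar transport and sucrose metabolism 6 rose and 7 fell, beside 6.17% and 4.96% of all genes, and the median log2 change was -0.02. With centred arrays 5 rose and 3 fell.

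Under the deposited scaling, more cell wall genes fell than rose at 6 h. BURP16, whose protein resembles the beta subunit of a pectin-degrading polygalacturonase, had the largest fall among called genes with a name: 10.59, 10.47 and 10.71 at 6 h against 11.88, 11.94 and 11.85 at 3 h, a 2.47-fold fall (-1.30 ± 0.06 on the log2 scale, adjusted p = 6.22e-09). OsPMEI8, an inhibitor of pectin methylesterase, fell by 0.77 (SE 0.10), with 10.46, 10.73 and 10.53 at 6 h against 11.30, 11.38 and 11.35 at 3 h. Both genes were separate between the times on every array. The expansins EXPA2 and EXPB11 fell by 0.59 (SE 0.05) and 0.54 (SE 0.06), while EXPA1 rose by 0.77 ± 0.15. EXPB2 had 5.94, 7.08 and 7.10 at 6 h against 8.09, 7.62 and 7.38 at 3 h, and its fall of 0.99 (SE 0.28, adjusted p = 0.0405) did not pass without replicate 1 of 6 h, replicate 1 of 3 h or replicate 2 of 3 h (adjusted p = 0.135, 0.155 and 0.0836). The fall of EXPB2 also did not pass in a limma fit of only the 6 arrays of 9311 (adjusted p = 0.114) or with centring (0.0541). BC1L2, related to a protein that orders cellulose, rose by 0.89 ± 0.15, and the cellulose synthase gene CESA8 fell by 0.27 (SE 0.03), which centring took out of the calls (adjusted p = 0.105). Of 53 genes on the list of primary cell wall and expansins 4 rose and 11 fell, beside 6.17% and 4.96% of all genes. With centred arrays 4 rose and 5 fell, and without replicate 2 of 3 h 3 rose and 7 fell.

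Among lignin genes, too, more fell than rose. CAD3 and CAD2, cinnamyl alcohol dehydrogenases, fell by 0.55 (SE 0.07) and 0.33 (SE 0.05), with 11.48, 11.26 and 11.17 for CAD3 at 6 h against 11.84, 11.88 and 11.84 at 3 h. The laccase LAC10, an enzyme class that joins lignin units, fell by 0.65 (SE 0.10), and LAC20 by 0.53 (SE 0.08). LAC7 rose by 0.60 ± 0.06, with 13.01, 13.14 and 13.21 at 6 h against 12.62, 12.47 and 12.47 at 3 h. ZB8, a phenylalanine ammonia-lyase at the entry of the pathway, rose by 0.47 ± 0.09. Of 27 measured genes of phenylpropanoid and lignin synthesis 2 rose and 8 fell, beside 6.17% and 4.96% of all genes, and the median log2 change was -0.17. With centred arrays 2 rose and 4 fell, and the median was -0.11.

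Direct defence genes did not move as 1 block. OSE727A, a Bowman-Birk proteinase inhibitor that the gene table also lists as RBBI3.3, had 13.76, 13.75 and 13.85 at 6 h against 12.69, 12.62 and 12.64 at 3 h, a 2.21-fold rise (1.14 ± 0.04 on the log2 scale, adjusted p = 7.83e-11). The oryzacystatin OC-I, an inhibitor of cysteine proteinases, fell by 0.30 (SE 0.04). The chitinase gene Cht11 had 9.30, 9.44 and 9.48 at 6 h against 8.22, 8.47 and 8.35 at 3 h and rose by 1.06 ± 0.09, whereas Cht2 fell by 0.33 (SE 0.06), a call removed by centring (adjusted p = 0.108). Among 10 measured genes on the pathogenesis related list, 3 rose and 1 fell, beside 6.17% and 4.96% of all genes. Without replicate 1 of 6 h 1 rose, and with centring 2 rose and 0 fell. Of 13 genes of diterpene phytoalexins 1 rose and 2 fell, beside 6.17% and 4.96% of all genes, and each of these calls but that of CYP71Z6 was lost when some single array was left out. CYP71Z6, a cytochrome P450 of that pathway, had 7.27, 7.16 and 7.34 at 6 h against 8.36, 8.15 and 8.05 at 3 h and fell by 0.93 (SE 0.16, adjusted p = 0.00141). CPS2, the cyclase that opens the phytocassane branch, had 5.69, 5.28 and 4.65 at 6 h against 6.16, 6.22 and 6.22 at 3 h. Its fall (SE of the log2 change 0.25, adjusted p = 0.0242) was lost without any 1 of the 3 h arrays or replicate 3 of 6 h (adjusted p between 0.0558 and 0.0794). CYP76M8 had 7.14, 6.17 and 7.50 at 6 h and 6.61, 4.02 and 3.77 at 3 h, so its arrays overlapped, and its rise of 2.14 ± 0.55 (adjusted p = 0.0253) was lost without replicate 1 or 3 of 6 h or replicate 2 or 3 of 3 h (adjusted p between 0.081 and 0.12). GLP2, a germin-like protein from a gene cluster linked to blast resistance, had 4.92, 5.84 and 5.82 at 6 h against 6.88, 6.32 and 6.27 at 3 h. Its fall of 0.97 (SE 0.24, adjusted p = 0.0233) was lost without replicate 1 of 6 h (0.0783) or of 3 h (0.102), and over all its tested probe sets the change was -0.46. In a limma fit of only the 6 arrays of 9311, CPS2, CYP76M8 and GLP2 did not pass (adjusted p = 0.181, 0.117 and 0.173). Centring also removed the call of CPS2 (adjusted p = 0.0665). At 0, 3 and 6 h OSE727A averaged 12.22, 12.65 and 13.79 and Cht11 averaged 7.91, 8.35 and 9.41, higher at each later time.

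Genes of other hormones moved singly. salT, a jacalin-type lectin induced by salt, drought and abscisic acid, had 12.23, 12.40 and 12.27 at 6 h against 10.79, 10.76 and 10.96 at 3 h and rose by 1.46 ± 0.06 (adjusted p = 4.8e-10). OsPP2C09, a phosphatase of the family that blocks abscisic acid signals, fell by 0.57 (SE 0.07). Of 100 measured genes of abscisic acid and drought 9 rose and 7 fell, near the 6.17% and 4.96% of all genes, and with centring 7 rose and 2 fell. FIB, an aminotransferase of auxin synthesis, fell by 0.68 (SE 0.11), with 9.65, 9.66 and 9.77 at 6 h against 10.49, 10.24 and 10.40 at 3 h. The auxin repressor genes IAA14 and IAA18 went opposite ways, with a rise of 0.69 ± 0.10 and a fall of 0.67 (SE 0.14). EIL1, a transcription factor of ethylene signalling (of the pair of genes with this symbol, the one also listed as EIL1B), had 10.33, 10.57 and 10.42 at 6 h against 11.11, 11.04 and 11.01 at 3 h and fell by 0.61 (SE 0.10). LOGL5, of the family that activates cytokinins, fell by 0.45 (SE 0.06). NH1, the rice counterpart of the salicylate receptor NPR1, fell by 0.38 (SE 0.09), a call lost without replicate 3 of 3 h or of 6 h (adjusted p = 0.0674 and 0.0713). The NH1 call was also lost in limma with centred arrays (adjusted p = 0.186) and without the intensity trend (0.0616). NH3, a relative of NH1, rose by 0.38 ± 0.07, although its change over all its tested probe sets was 0.22.

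Stress proteins, metal genes and the clock gave a few clear single changes. The small heat shock genes hsp17.9 and HSP26.2 rose by 0.60 ± 0.04 and 0.66 ± 0.11, while the heat shock factor HSFA6B fell by 0.51 (SE 0.08). Of 44 heat shock genes 4 rose and 3 fell, near the 6.17% and 4.96% of all genes. MT1B, a metallothionein that binds metals, rose by 1.06 ± 0.13, with 9.28, 9.63 and 9.59 at 6 h against 8.61, 8.29 and 8.45 at 3 h, and MT-1 fell by 0.30 (SE 0.04). The glutaredoxins GRXS5 and GRXS9 rose by 0.62 ± 0.05 and 0.48 ± 0.05, and GRXC10 fell by 0.67 (SE 0.05), with 10.96, 10.98 and 11.11 at 6 h against 11.69, 11.70 and 11.69 at 3 h. NAS1, which makes the iron chelator nicotianamine, rose by 0.58 ± 0.06. MHX1, named for a vacuolar metal exchanger of Arabidopsis, had 8.37, 8.32 and 8.36 at 6 h against 9.37, 9.35 and 9.29 at 3 h. It fell by 0.98 (SE 0.10, adjusted p = 9.47e-06), although its mean change over all its tested probe sets was -0.73. The silicon channel gene NIP2-2 fell by 0.34 (SE 0.05). Of 12 measured genes of the clock and flowering time 1 rose and 0 fell, beside 6.17% and 4.96% of all genes. The gene that rose was OsPRR95, with 12.60, 12.64 and 12.54 at 6 h against 12.10, 12.16 and 12.02 at 3 h, a rise of 0.50 ± 0.04. CCA1 differed by 0.41 ± 0.17, OsPRR1 by 0.05 ± 0.07, OsPRR73 by -0.12 ± 0.11, GI by -0.05 ± 0.04 and Hd1 by -0.43 ± 0.27, none of which passed (adjusted p between 0.176 and 0.754). Of 60 redox genes 7 rose and 6 fell, beside 6.17% and 4.96% of all genes, and 4 rose without replicate 3 of 3 h or of 6 h and with centring, which left 2 that fell. Of 39 iron and metal genes 6 rose and 5 fell, beside 6.17% and 4.96% of all genes. The number that fell was 2 without replicate 3 of 3 h, 3 without replicate 1 or 3 of 6 h, and 0 with centring.

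Several of the larger falls were of genes that stood higher at 3 h than at 0 h. BURP16 averaged 10.01, 11.89 and 10.59 at 0, 3 and 6 h. MHX1 averaged 7.75, 9.34 and 8.35. In both, and in RFS, the 6 h mean lay between the means of 3 h and 0 h. CML4 averaged 9.79, 10.60 and 9.82 and FIB averaged 9.66, 10.38 and 9.70, so at 6 h both were within 0.1 of the uninfested mean. CIPK5 averaged 6.69, 7.93 and 7.01. OsPMEI8 was instead lower at each later time: it averaged 11.74, 11.34 and 10.57 at 0, 3 and 6 h. The 0 h values carry no test here, because the fall at 6 h and any gain at 3 h use the same 3 h arrays.

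The same interval was measured in NIL-BPH9 on other arrays. There 4510 of 15870 genes (28.4%) passed, with 13.0% higher and 15.4% lower at 6 h, and 20.8% of probe sets (9.39% higher and 11.4% lower). Of the 979 genes that rose in 9311, 578 rose, 47 fell and 354 did not pass in NIL-BPH9, and 813 (83%) had a change above 0. Of the 787 genes that fell in 9311, 409 fell, 41 rose and 337 did not pass, and 627 (79.7%) had a change below 0. The difference between the lines was tested as an interaction, and 1689 genes (10.6%) passed it, 5.07% with the higher change in 9311 and 5.57% with the lower. Of probe sets 7.57% passed it, 3.62% above 0 and 3.96% below. Across all 15870 genes the changes of the lines correlated at r = 0.421 (Spearman rho 0.366), and genes are not independent replicates. Chib3H-a, ICL, MAKIBA3, LOX1.1, DREB1G, TIFY11A, TIFY11E and TIFY11B rose in NIL-BPH9 too, with no passing difference between the lines.

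Single named genes moved differently in the lines. BURP16 fell by 1.30 in 9311 and rose by 0.25 ± 0.06 in NIL-BPH9, a difference of -1.55 (adjusted p = 9.12e-08). salT rose by 1.46 in 9311 and by 0.19 ± 0.06 in NIL-BPH9, a difference of 1.27 (adjusted p = 1.36e-07). PORA rose by 0.67 in 9311 and fell by 0.36 (SE 0.04) in NIL-BPH9, and EXPA1 rose by 0.77 in 9311 and fell by 0.77 (SE 0.15) in NIL-BPH9. EIL1 and GRXC10, lower at 6 h in 9311, rose by 0.59 ± 0.10 and 0.63 ± 0.05 in NIL-BPH9. OSE727A changed by 0.09 ± 0.04 in NIL-BPH9, which did not pass, against its rise of 1.14 in 9311 (difference 1.05, adjusted p = 2.69e-08). Some genes rose in both lines and further in NIL-BPH9: DREB1B rose there by 3.95 ± 0.18, DREB1A by 2.84 ± 0.16, ABA8OX1 by 2.85 ± 0.11 and CML31 by 2.72 ± 0.09. For each of these 4 genes the difference between the lines passed. It did not pass for DREB1G (adjusted p = 0.309), DREB1C (0.63) or CML14 (0.29), and CML4, which fell in 9311, changed by 0.06 ± 0.10 in NIL-BPH9 and did not pass there.

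**Figure D5:**
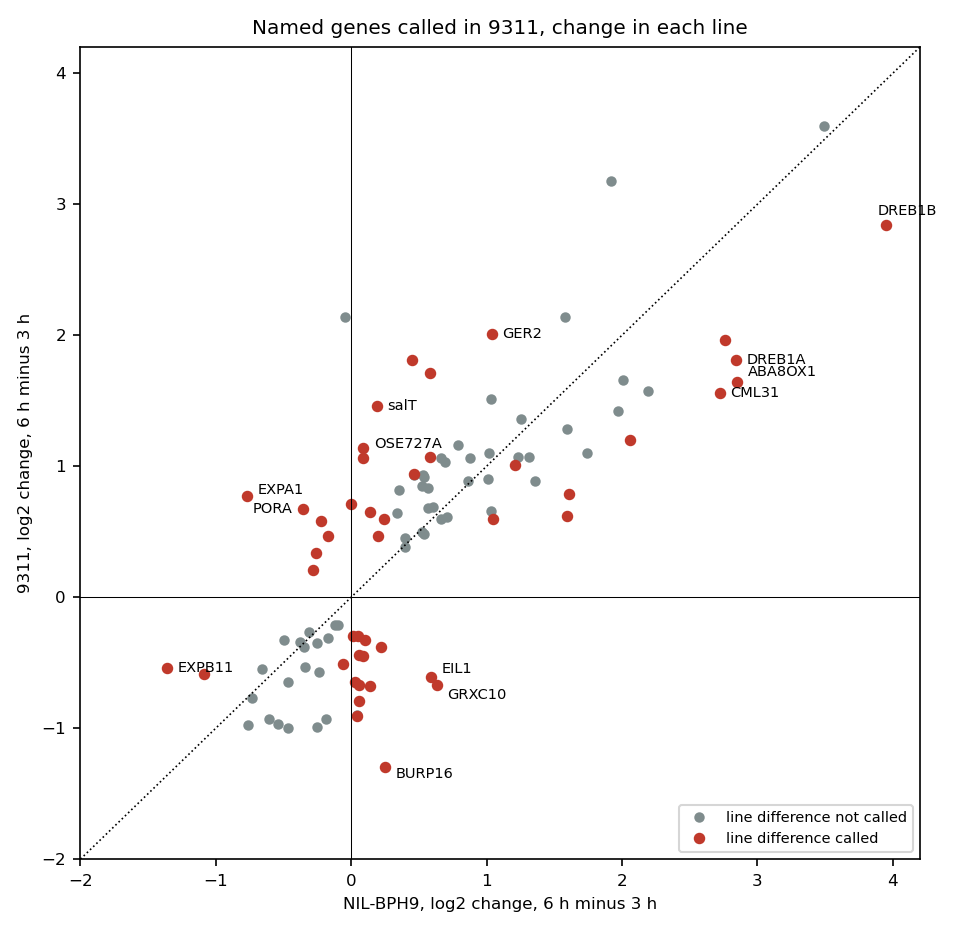
Log2 change from 3 h to 6 h in 9311 (vertical) against NIL-BPH9 (horizontal) for the genes named in the text that passed in 9311; the dotted line marks equal change and red points have a passing difference between the lines. BURP16, EIL1 and GRXC10 fall in 9311 and rise in NIL-BPH9, and DREB1B, DREB1A, ABA8OX1 and CML31 rise further in NIL-BPH9.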

How the data were processed

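RNA of whole leaf sheath was hybridised to Affymetrix 1-colour arrays. The deposited values are log2 signals, 1 per probe set and array, made with MAS5 per the submitters' processing notes; the sources used here do not give its version or settings. The 2% trimmed mean of the linear signal was 500.076 to 500.088 on every array, and the lowest deposited log2 value was 0. No detection calls were used, so values near the array median may hold mostly background, and the number of arrays limits the precision.

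Of 57381 probe sets, 187 controls (123 AFFX and 64 RPTR) were left out. The platform annotation's Entrez identifiers were looked up in RefSeq's rice table (ASM3414082v1) to give current names, and no position was taken from it: 22436 probe sets had 1 gene, 95 had several and 34663 were unnamed here. The filter kept 31547 probe sets that reached the median of the array on 3 or more of the 12 infested arrays. limma 3.58.1 (R 4.3.3) fitted 4 group means over those 12 arrays; variances were moderated with a trend on intensity, and p-values were adjusted by Benjamini-Hochberg over every tested probe set (0.05). All adjusted p-values are from limma. Each of 15870 genes was read from its brightest tested probe set, and 2241 of them had a name. Probe sets with identifiers ending in _x_at were used only where a gene had no other tested one, as for CYP76M8, OSH1 and NIP2-2. "Rose" and "fell" refer to genes that passed. P-values measure the spread between the samples deposited as replicates.

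Genes in the text are the 12 largest rises and 12 largest falls that passed, carry a name and separate the times on every array, and from each list a selection of its 2 strongest rises and 2 strongest falls, mostly those that held under the alternatives; other list members are given with their values. CYP76M8, whose arrays overlapped, came from a list. The members and lists were chosen with earlier results of these data known. Lists were matched by symbols and synonyms, and members that only shared a symbol were removed by name. Replicate numbers did not pair the samples (correlations of same-numbered deviations were -0.00204, 0.0343 and 0.0274 in 9311). On simulated data of 31547 probe sets for this comparison, 82 of 100 changes of 4-fold and 64 of 100 of 2-fold were recovered, with 9 false among 155 calls. The simulation had independent noise, 200 changed probe sets and no shift between arrays. Its rates therefore need not hold for the real data, where 2502 probe sets passed. Promoter and protein sequences were not used here.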

Additional observations from a re-analysis of the deposited data

Results flagged for a closer look

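The change between 3 h and 6 h differed between the lines, by the interaction test, for the following named genes; values are the change in 9311 minus that in NIL-BPH9 on the log2 scale, and no cause was tested. The difference was below 0 for genes that rose more in NIL-BPH9: DREB1B (-1.11), DREB1A (-1.03), DREB1E (-0.80), ABA8OX1 (-1.21), CML31 (-1.15), CML15 (-0.86), CML16 (-0.81), CML10 (-0.21), GRXS5 (-0.98) and LAC7 (-0.45). It was also below 0 for genes that fell in 9311 and did not pass as a fall in NIL-BPH9: BURP16 (-1.55), GRXC10 (-1.30), EIL1 (-1.21), CIPK5 (-0.95), CML4 (-0.85), FIB (-0.83), IAA18 (-0.74), OsSUT1 (-0.68), NH1 (-0.60), LOGL5 (-0.54), CIN1 (-0.50), HSFA6B (-0.45), Cht2 (-0.43), MT-1 (-0.35) and OC-I (-0.31).

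The difference was above 0 for genes that rose in 9311 and rose less, did not pass or fell in NIL-BPH9: EXPA1 (1.54), EXPA29 (1.36), salT (1.27), MS (1.13), OSE727A (1.05), PORA (1.03), GER2 (0.98), MT1B (0.97), NAS1 (0.80), OsSWEET11 (0.72), ZB8 (0.63), TIFY11C (0.60), OsRPA32 (0.50), MCM4 (0.49), rca (0.49), OsWRKY76 (0.48), OsPCNA (0.36) and AGPS2 (0.27). TIFY10C did not pass in 9311 and fell in NIL-BPH9 (difference 0.61). EXPB11 (0.82) and EXPA2 (0.50) fell in both lines, and further in NIL-BPH9.

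With each array centred on its median, 34 of these 46 differences passed, and none changed sign. Those of EXPA29, MCM4, OsPCNA, OsRPA32, OsWRKY76, CML10, AGPS2, IAA18, NH1, Cht2, OC-I and HSFA6B did not pass (adjusted p between 0.058 and 0.336 in limma). With quantile normalization 43 passed, and those of EXPA29, MCM4 and CML10 did not.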

How the results depend on the processing

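Centring each array on its median gave 1274 probe sets for 9311 in place of 2502, 4292 for NIL-BPH9 in place of 6552 (70.6% higher at 6 h in place of 45.2%) and 881 for the line difference in place of 2389 (33.5% above 0 in place of 47.8%). Without the intensity trend 1610 passed for 9311 and 1336 for the line difference. The 6 arrays of 9311 alone gave 1667, and all 18 arrays gave 1488 for the line difference; the causes were not tested. Leaving out 1 array gave 1768 to 2242 for 9311, 5144 to 5596 for NIL-BPH9 and 1828 to 2220 for the line difference, and -0.04 to 0.05 for the 3' to 5' ratio. With the replicate block, whose numbers did not pair the samples, the counts were 2081, 6207 and 1963. Quantile normalization, both other filters and raised low values kept each count within 1.5 times. Of 115 genes given in the text, 92 met both of the following conditions. They kept their call in every alternative fit, where sizes were not compared. Where they had several tested probe sets, the mean change over them also lay within 1 SE. That mean was further off for MHX1 (-0.73), GLP2 (-0.46), TIFY11B (0.83), OsWRKY71 (1.13), ZB8 (0.37), salT (1.60) and NH3 (0.22), which are therefore not among the 92. Of these genes only GLP2 also lost its call in some fit, and the others kept it in all. Of 1736 values 60 lost the call, 8 gained it and, among called genes, 0 reversed sign. The alternative with only the 6 arrays of a line gives no line difference.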
